A study of Mus musculus with 2 samples.

Results

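A set of 10 genes of bone morphogenetic protein (BMP) and transforming growth factor beta (TGF-beta) signaling was followed in tumor endothelium: the ligands Bmp2, Bmp4, Bmp6 and Tgfb1, the endothelial receptors Eng (endoglin) and Acvrl1 (ALK1), the inhibitory Smads Smad6 and Smad7, and the target genes Id1 and Id3. These 10 of the 33696 genes in the count tables were chosen for their place in the pathway, with earlier results of these data known. All 10 were listed. The tumors were PyMT-M (High-MAC, macrophage-rich) and PyMT-N (Low-MAC), sublines of the MMTV-PyMT mammary tumor model, in which the mouse mammary tumor virus promoter drives polyoma middle T antigen in mammary epithelium. Both were grown from transplanted cells in the mammary gland of female C57BL/6 mice, the labels name no treatment, and each group is 1 tumor line. CD45+ and Ter119+ cells were removed, CD31 and CD144 beads and a CD31+ CD144+ sort enriched endothelium, and cells of 3 tumors were pooled before 1 droplet-based 3′ library was made per line. With 1 library per line there was no replicate, so no difference between PyMT-M and PyMT-N was tested, and every interval given here is a 95% interval that covers counting error only.

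BMP and TGF-beta ligands bind pairs of type 1 and type 2 serine/threonine kinase receptors. In endothelium, ALK1 with the co-receptor endoglin passes signals of circulating BMP9 and BMP10 to Smad1 and Smad5, which with Smad4 switch on Id1, Id3, Smad6 and Smad7, whereas TGF-beta with ALK5 (Tgfbr1) acts on Smad2 and Smad3. Smad6 and Smad7 feed back and block receptor signaling, and the Id proteins hold basic helix-loop-helix factors inactive. Loss of ENG or ACVRL1 function causes hereditary hemorrhagic telangiectasia, a disease of arteriovenous malformations.

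In all, 7821 barcodes with 141067264 UMIs (unique molecular identifiers, counted molecules) were deposited for PyMT-M, and 6974 with 116150425 UMIs for PyMT-N. A limit of at least 200 detected genes and at most 10% mitochondrial UMIs kept 6719 and 5607 cells. Blood endothelial cells had at least 5 UMIs of Pecam1, Flt1, Emcn and Kdr together, at most 1 of Krt8, Krt18 and Rhox5, and none of Prox1, which left 588 PyMT-M cells (median 5206.5 UMIs) and 1065 PyMT-N cells (median 12696). Lymphatic cells (at least 3 UMIs of Prox1, Mmrn1 and Reln) numbered 20 and 207, tumor cells (at least 3 of Krt8, Krt18 and Rhox5, none of Pecam1 and Flt1) 4902 and 3306, with medians of 23715.5 and 20757.5 UMIs, and fibroblasts (Col3a1 at 3000 CPM or more, CPM being UMIs scaled to a total of 1000000) 58 and 63. The remaining 1165 and 977 cells had no class. The libraries shared 20 barcodes, 12 of them in kept cells and 0 in blood endothelial cells of both.

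Endothelial genes that the rule did not use (Cdh5, Tie1, Egfl7, Cldn5, Esam, Tek and Erg) summed to 4394 CPM in PyMT-M and 4506 CPM in PyMT-N blood endothelial cells, against 40.1 and 10.7 CPM in tumor cells. The tumor class did not carry a full epithelial set: Epcam, Krt7, Krt14, Krt19 and Cdh1 summed to 3.66 and 1.52 CPM, with Krt19 at 0 in PyMT-M, so "tumor cells" is used here only as the name of the rule. Blood endothelial cells also held small amounts of other markers. An immune list (Ptprc, Cd68, Csf1r, Lyz2, Cd3e) summed to 30.6 CPM in PyMT-M and 218 CPM in PyMT-N, and the mural genes Rgs5 and Notch3 stood at 64.6 and 13.9 CPM in PyMT-M against 2.88 and 0.201 CPM in PyMT-N. The whole mural list (Rgs5, Cspg4, Pdgfrb, Kcnj8, Notch3) summed to 101 and 123.5 CPM, and 11 PyMT-M cells (1.87%) and 310 PyMT-N cells (29.1%) held at least 2 UMIs of it. Kcnj8 made up most of the PyMT-N sum, at 117 CPM against 9.40 CPM in PyMT-M. Its part in the results was not tested, since the mural list used to leave out cells did not hold Kcnj8. Leaving out cells with at least 2 UMIs of the immune list, the mural list without Kcnj8 or a fibroblast list removed 11 of 588 and 65 of 1065 cells. For summed ratios, values without them are given where they mattered. The marker ranges and the correlations were not recomputed without these cells, so their part there was not tested.

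Within blood endothelial cells the receptors and the Id targets were higher in PyMT-M, and 2 of the 4 ligands were lower. Of the 10 genes, 6 were at least 1.5-fold higher in PyMT-M (Bmp6, Eng, Acvrl1, Smad6, Id1, Id3), 2 were at least 1.5-fold lower (Bmp2, Bmp4) and 2 lay within that fold (Tgfb1, Smad7). Of 8544 genes whose UMIs summed to 200 or more, 17.1% passed the same fold (7.94% higher, 9.19% lower). That set held 8 of the 10 genes, since Bmp6 and Smad6 had too few UMIs. The median log2 ratio was 0.72 over the 10 genes and -0.0066 over all 8544. All values below compare a gene with itself across cells or libraries, since a 3′ count does not rank genes against each other.

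**Figure D1:**
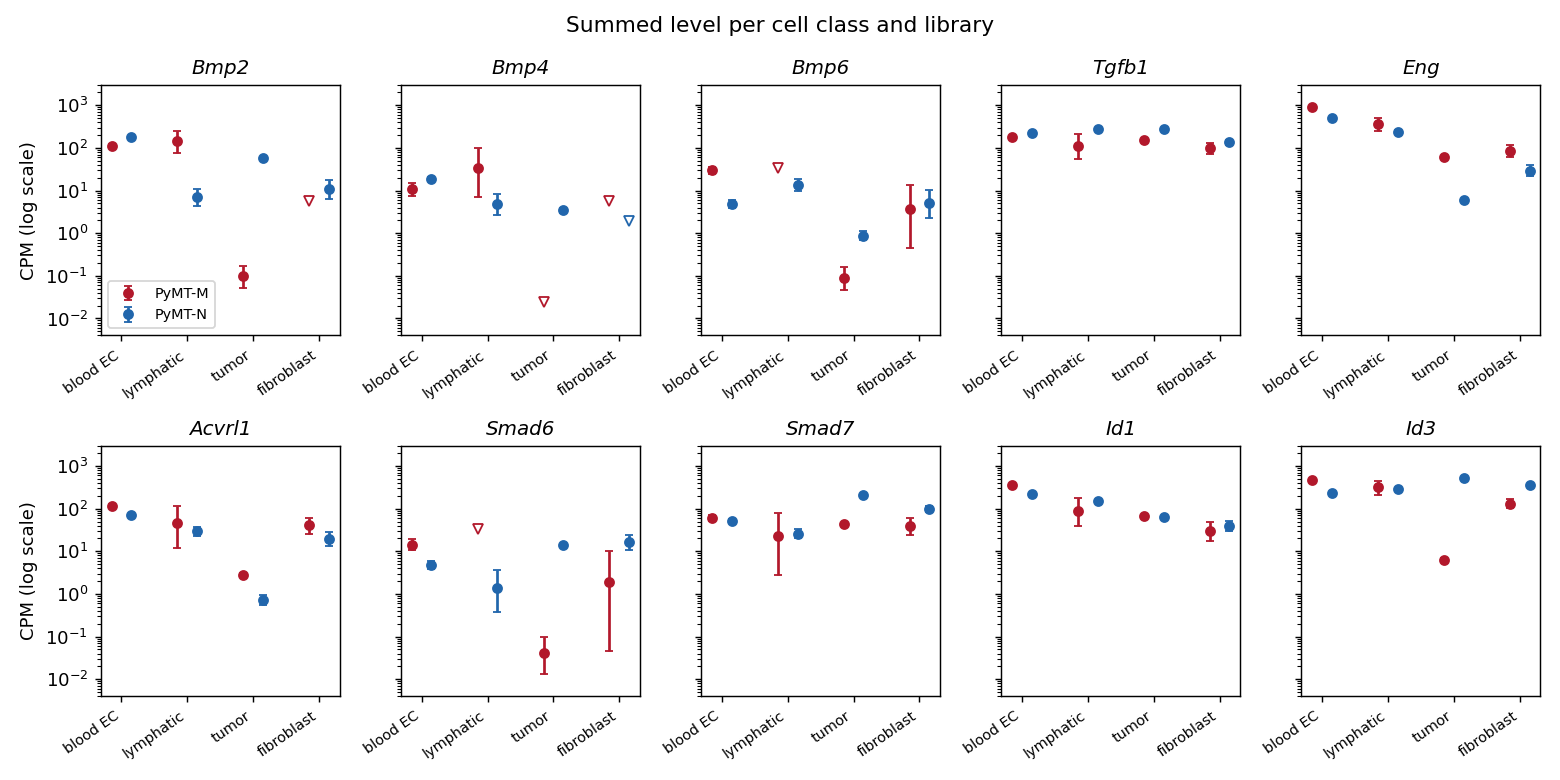
Level of each gene, in CPM on a log scale, in the 4 cell classes of PyMT-M (red) and PyMT-N (blue). Points are summed counts, bars are 95% exact Poisson intervals, and open triangles mark the level of 3 counts where none was seen. Eng and Acvrl1 were highest in blood endothelium of both libraries, whereas Id3 and Smad7 were highest in tumor cells of PyMT-N.

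Bmp2 (ENSMUSG00000027358), a BMP ligand made by endothelium and many other tissues, was at 114 CPM (103 to 126) in PyMT-M blood endothelial cells and 185 CPM (178 to 192) in those of PyMT-N, a log2 ratio of -0.70 (-0.86 to -0.55). It was seen in 19.9% of the PyMT-M and 43.4% of the PyMT-N cells. In cells with at least 4000 UMIs, thinned to that number, it was seen in 16.7% and 31.5%, so the order held there. Thinning left out 205 PyMT-M and 20 PyMT-N blood endothelial cells with fewer UMIs. Values at 4000 UMIs, here and below, therefore differ from the others in the cells used as well as in depth. Its UMIs were concentrated in few cells: the 5% of blood endothelial cells with the most Bmp2 held 57.9% of them in PyMT-M and 40.0% in PyMT-N. Tumor cells of PyMT-M, at a median depth above that of the endothelial cells, had 12 Bmp2 UMIs in 11 of 4902 cells (0.224%), or 0.0993 CPM. Tumor cells of PyMT-N had 57.7 CPM and Bmp2 in 36.5% of cells. Bmp2 was thus 1146-fold higher in blood endothelium than in tumor cells of PyMT-M, and 3.21-fold higher in PyMT-N.

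Bmp4 (ENSMUSG00000021835), a related ligand, was sparse in blood endothelium, with 35 UMIs and 10.6 CPM (7.39 to 14.8) in PyMT-M and 277 UMIs and 18.6 CPM (16.5 to 20.9) in PyMT-N. The log2 ratio was -0.81 (-1.36 to -0.30), and -1.40 in cells thinned to 4000 UMIs. The share of cells with a UMI was 3.57% and 17.8%, or 2.35% and 7.75% after thinning. No Bmp4 UMI was seen in 4902 PyMT-M tumor cells, where 3 counts would be 0.0248 CPM, and PyMT-N tumor cells had 3.43 CPM. Against that floor Bmp4 was at least 428-fold higher in PyMT-M blood endothelium than in its tumor cells.

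Bmp6 (ENSMUSG00000039004), a BMP ligand best known from liver endothelium, where it controls iron balance, had the widest ratio of the ligands in blood endothelium and went the other way. It was at 30.0 CPM (24.4 to 36.6) in PyMT-M and 4.90 CPM (3.84 to 6.16) in PyMT-N. The ratio was 2.62 on the log2 scale (2.17 to 3.07), on 99 and 73 UMIs. The share of cells with a UMI was 9.35% against 3.47% at unequal depth and 7.83% against 1.05% at 4000 UMIs. All Bmp6 UMIs of PyMT-N came from 37 cells and those of PyMT-M from 55. Tumor cells had 0.0910 CPM in PyMT-M and 0.874 CPM in PyMT-N, so that the ratio between libraries was opposite in sign there, at -3.26 (-4.33 to -2.33).

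Tgfb1 (ENSMUSG00000002603), the ligand that also acts on immune cells and fibroblasts, was at 176 CPM (162 to 190.5) and 229.9 CPM (222 to 238), a log2 ratio of -0.39 (-0.52 to -0.26) within 1.5-fold. It was the most evenly spread of the ligands. Tumor cells had 154 CPM in PyMT-M and 284 CPM in PyMT-N, lymphatic cells of PyMT-N 275.5 CPM, and fibroblasts 98.6 and 135 CPM, and blood endothelium stayed within 2-fold of tumor cells in both libraries.

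Eng (ENSMUSG00000026814), the co-receptor endoglin, was at 905 CPM (873 to 938) in PyMT-M blood endothelial cells and 501 CPM (490 to 513) in PyMT-N. The log2 ratio was 0.85 (0.79 to 0.91), 1.81-fold. At unequal depth the share of cells with a UMI was 90.5% (PyMT-M) and 93.1% (PyMT-N), whereas at 4000 UMIs it was 83.8% and 78.2%. The level in tumor cells differed more than that in endothelium, at 59.9 CPM in PyMT-M and 5.85 CPM in PyMT-N (log2 ratio 3.35, 3.22 to 3.50), with Eng in 72.2% and 12.3% of cells. The Eng level of tumor cells was 6.61% of the endothelial level in PyMT-M, whereas the 7 other endothelial genes stood between 0.0438% and 2.04%. In PyMT-N it was 1.17%, against 0.122% to 0.401%. The tumor rule takes only barcodes without Pecam1 and Flt1, so these percentages do not cover barcodes with more endothelial RNA. Whether Eng in tumor cells was RNA carried over from endothelium was not tested.

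Acvrl1 (ENSMUSG00000000530), the type 1 receptor ALK1, was at 116 CPM (104 to 128) in PyMT-M and 69.2 CPM (65.1 to 73.6) in PyMT-N, which is 0.74 on the log2 scale (0.57 to 0.91). Thinning to 4000 UMIs brought it to 0.55, just inside the fold of 1.5, and the share of cells with a UMI was then 32.6% against 24.1%. Without thinning the share was 43.5% against 54.3%, in the order of median depth. Tumor cells had 2.73 and 0.728 CPM, with a UMI in 5.69% and 1.66% of cells. Eng and Acvrl1 were the only 2 of the 10 genes that were at least 1.5-fold higher in PyMT-M in both blood endothelial and tumor cells. The Acvrl1 level of tumor cells was 2.36% of the endothelial level in PyMT-M and 1.05% in PyMT-N. The 7 other endothelial genes had a median of 0.140% and 0.171% and reached 2.04% and 0.401%, both for Egfl7. They summed to 40.1 and 10.7 CPM in tumor cells, of which Egfl7 held 34.4 and 5.19 CPM. Whether Acvrl1 there was RNA carried over from endothelium was not tested. In fibroblasts, on 22 and 30 UMIs, Acvrl1 was at 40.9 and 19.6 CPM.

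The inhibitory Smads differed from each other. Smad6 (ENSMUSG00000036867), which mainly blocks BMP receptors, was at 14.3 CPM (10.5 to 19.0) in PyMT-M and 4.83 CPM (3.78 to 6.08) in PyMT-N blood endothelium, on 47 and 72 UMIs, a log2 ratio of 1.56 (1.00 to 2.11). In cells thinned to 4000 UMIs it was at 12.4 and 6.94 CPM, a ratio of 0.84, on 19 and 29 UMIs. The share of cells with a UMI was 7.48% and 5.26%, or 4.96% and 2.49% after thinning. Smad7 (ENSMUSG00000025880), which blocks both branches, was at 60.7 CPM (52.5 to 69.7) and 52.4 CPM (48.8 to 56.2), a log2 ratio of 0.21 whose interval held 0 (-0.02 to 0.44). At 4000 UMIs Smad7 was seen in 17.8% and 16.6% of cells. In tumor cells both were far higher in PyMT-N. Smad6 had 5 UMIs in 4902 PyMT-M tumor cells, 0.0414 CPM, and 1053 UMIs in PyMT-N, 13.9 CPM. Smad7 was at 43.5 and 215 CPM there.

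Id1 (ENSMUSG00000042745) was at 367 CPM (347 to 388) in PyMT-M blood endothelium and 227 CPM (219 to 235) in PyMT-N (log2 ratio 0.69, 0.60 to 0.79). Id3 (ENSMUSG00000007872) was at 470.1 CPM (447 to 494) and 237 CPM (229 to 245), a log2 ratio of 0.99 (0.90 to 1.08). For both, the shares stood in the order of the levels only in the cells thinned to 4000 UMIs. Id1 was seen in 63.3% and 70.1% of cells as sequenced and in 59.0% and 44.9% at 4000 UMIs, and Id3 in 67.3% and 68.2%, then 61.4% and 46.6%. Id1 in tumor cells was nearly level between the libraries, at 68.4 and 63.4 CPM. Id3 was at 6.41 CPM in PyMT-M tumor cells, in 441 of 4902 cells, and at 526.5 CPM in PyMT-N tumor cells, in 93.6%, a log2 ratio of -6.36 (-6.46 to -6.26). Id3 therefore marked blood endothelium against tumor cells in PyMT-M, 73.3-fold, and was 2.22-fold lower in blood endothelium than in tumor cells of PyMT-N.

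**Figure D2:**
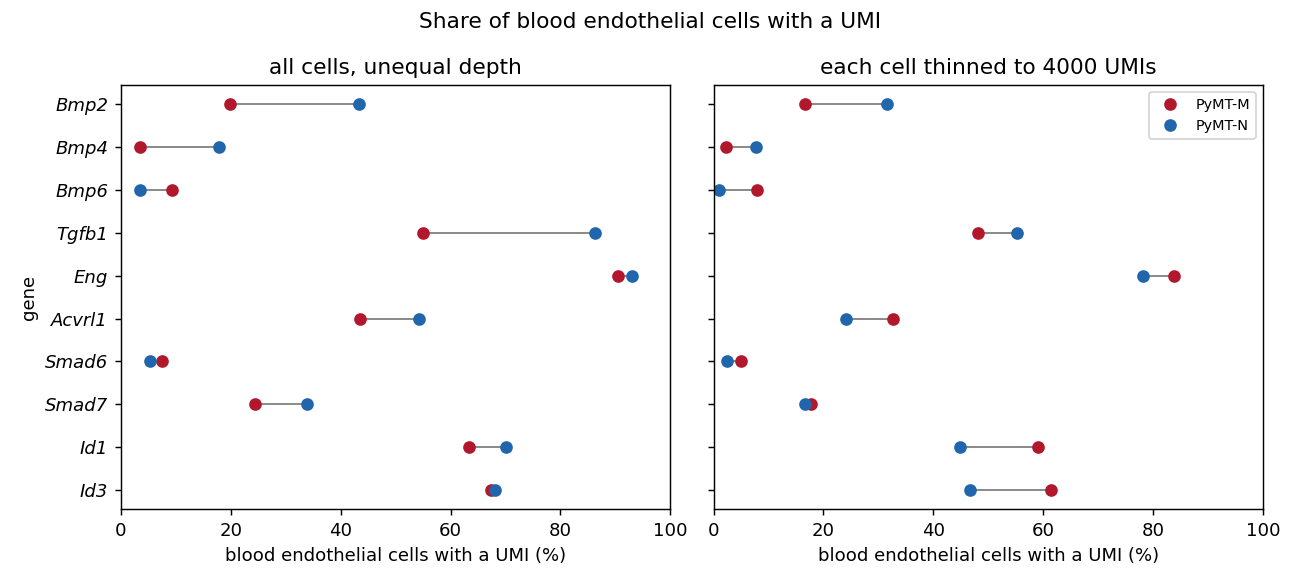
Percent of blood endothelial cells with at least 1 UMI of each gene in PyMT-M (red) and PyMT-N (blue), for all cells at left and for cells thinned to 4000 UMIs at right (383 and 1045 cells). Eng, Acvrl1, Smad7, Id1 and Id3 changed order between the panels, and Bmp2, Bmp4, Bmp6 and Smad6 kept theirs.

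The promoters of Eng, Smad6 and Id3 are shown as examples of genes higher in PyMT-M endothelium, because Smads bind short motifs upstream of such genes. Bmp6 was higher too and had an entry, but its promoter is not printed. Of the 10 genes, 6 had an entry in the RefSeq promoter table of build GRCm38.p6, and the 250 bases before the start were searched on both strands for GGCGCC and GTCTAGAC, which read the same on both strands, and GTCTG, which is CAGAC on the other strand. No motif overlapped another in the printed stretches. Capitals mark GTCTG or CAGAC, the only motif found in them. Eng lies on the plus strand at chr2:32646345-32646594, Smad6 on the minus strand at chr9:64022060-64022309 and Id3 on the plus strand at chr4:136143572-136143821.
Eng: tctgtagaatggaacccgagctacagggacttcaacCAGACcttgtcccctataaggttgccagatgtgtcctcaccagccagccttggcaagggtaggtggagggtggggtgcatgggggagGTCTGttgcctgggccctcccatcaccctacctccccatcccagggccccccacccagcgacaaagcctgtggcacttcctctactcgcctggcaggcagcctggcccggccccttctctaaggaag
Smad6: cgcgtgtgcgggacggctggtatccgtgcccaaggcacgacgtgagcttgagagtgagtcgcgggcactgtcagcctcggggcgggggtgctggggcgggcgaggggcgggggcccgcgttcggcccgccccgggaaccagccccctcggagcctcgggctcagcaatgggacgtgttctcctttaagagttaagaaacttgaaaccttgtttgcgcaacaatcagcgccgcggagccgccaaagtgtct
Id3: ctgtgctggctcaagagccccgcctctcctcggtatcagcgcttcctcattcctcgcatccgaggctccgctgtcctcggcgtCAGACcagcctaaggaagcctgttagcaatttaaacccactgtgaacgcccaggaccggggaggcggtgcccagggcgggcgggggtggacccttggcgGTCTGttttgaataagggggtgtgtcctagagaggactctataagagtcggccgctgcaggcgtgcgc
Eng held CAGAC 214 bases and GTCTG 127 bases before the start, and Id3 held CAGAC 167 bases and GTCTG 68 bases before it. Bmp6 had 1 match, and Bmp4, Tgfb1 and Smad6 had none. GTCTG on either strand was present in 42.2% of all 32851 promoter windows of this length, GGCGCC in 9.59% and GTCTAGAC in 0.167%, so matches to GTCTG are common. The counts themselves were made on another build, and no coordinate here comes from them.

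The ratios between libraries were different in tumor cells. There, 7 of the 10 genes were at least 1.5-fold lower in PyMT-M (Bmp2, Bmp4, Bmp6, Tgfb1, Smad6, Smad7, Id3), 2 were higher (Eng, Acvrl1) and Id1 was within the fold, where 61% of 12553 genes passed it (29.1% higher, 31.9% lower). Most genes thus passed the fold between the tumor classes, so the count of calls there says little about the 10 genes. Bmp6 had too few UMIs to be among the 12553. Bmp2, at a log2 ratio of -9.18 (-10.14 to -8.38), and Smad6, at -8.40 (-10.02 to -7.17), had the lowest values measured, and Bmp4, with no UMI in PyMT-M, was at least 138-fold lower. Bmp6, Smad6 and Id3 had opposite signs in the 2 classes with counting intervals clear of 0 in both. Smad7 also changed sign, from 0.21 to -2.30, but its interval in blood endothelium held 0, except without cells carrying other markers (0.42, 0.18 to 0.65).

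**Figure D3:**
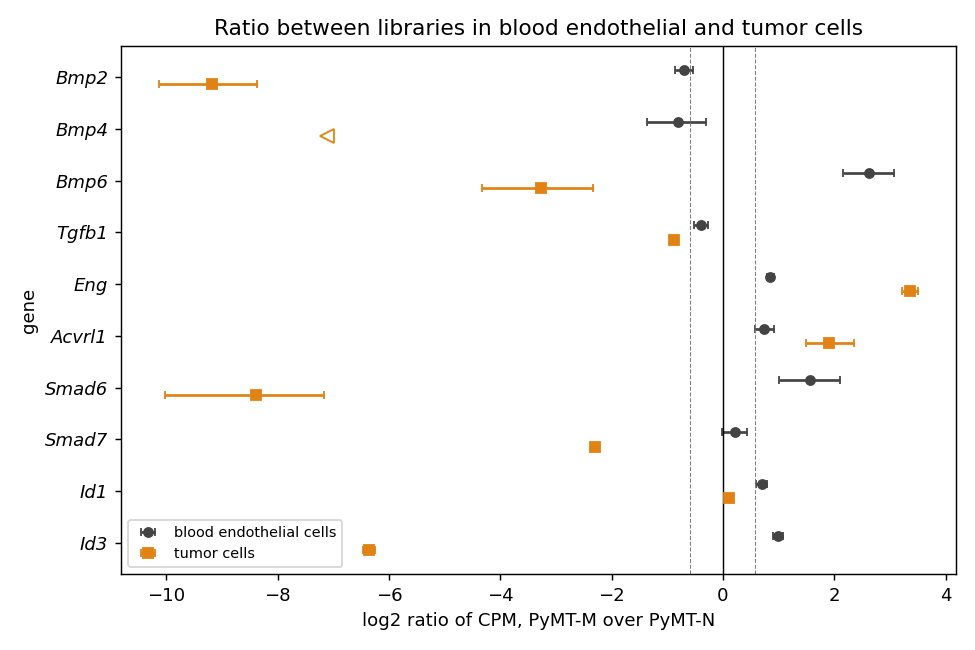
Log2 ratio of CPM, PyMT-M over PyMT-N, in blood endothelial cells (dark circles) and tumor cells (orange squares), with 95% counting intervals. Dashed lines mark 1.5-fold, and the open triangle is the bound for Bmp4, which had no UMI in PyMT-M tumor cells. Bmp6, Smad6 and Id3 lie to the right of 0 in endothelium and to the left of it in tumor cells with intervals clear of 0, and the interval of Smad7 in endothelium crosses 0.

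RNA of one class can reach barcodes of another, so the level in blood endothelium of 1 gene seen in tumor cells was measured. Pdgfra, chosen for this after its values were seen, stood at 34.2 and 58.0 CPM in tumor cells and at 0.607 and 0.738 CPM in blood endothelium, which was 1.77% and 1.27% of the tumor level. Id3 at 237 CPM and Smad7 at 52.4 CPM in PyMT-N blood endothelium were 45.0% and 24.4% of their tumor levels. Smad6, at 4.83 CPM, was 34.7% of its tumor level. Pdgfra is also a gene of the fibroblast list, and the blood endothelial rule limits Krt8, Krt18 and Rhox5. Values of 1 gene picked this way cannot bound the RNA carried over, whose part in these levels was not tested.

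Against tumor cells of the same library, blood endothelium was at least 2-fold higher for 8 of the 10 genes in PyMT-M and lower for none, where 39.1% of 11315 genes passed that fold (19.2% higher, 19.9% lower). Tgfb1 and Smad7 were within it. The 11315 genes held 7 of the 10, since Bmp4, Bmp6 and Smad6, all among the 8, had too few UMIs. In PyMT-N, 6 genes were higher (Bmp2, Bmp4, Bmp6, Eng, Acvrl1, Id1), 3 were lower (Smad6, Smad7, Id3) and Tgfb1 was within it, where 32.4% of 11764 genes passed (17.4% higher, 15% lower). The lower genes had log2 ratios of -1.53 (Smad6), -2.04 (Smad7) and -1.15 (Id3). The 11764 genes held 9 of the 10, without Bmp6. Eng and Acvrl1 had the widest endothelial excess in PyMT-N, at 85.7-fold and 95.1-fold, and stood 15.1-fold and 42.4-fold above tumor cells in PyMT-M.

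Lymphatic endothelial cells could be described in PyMT-N, with 207 cells and a median of 11692 UMIs, near that of the blood endothelial cells. Lyve1, Pdpn, Flt4 and Ccl21a, which the rule did not use, summed to 12997 CPM there and to 157 CPM in blood endothelium. Of the 10 genes, 6 were at least 2-fold lower in lymphatic than in blood endothelial cells, 1 was higher and 3 were within the fold, where 14.8% of 8616 genes passed it (6.14% higher, 8.66% lower). Bmp2 had the widest difference, at 7.05 CPM (4.31 to 10.9) against 185 CPM, a log2 ratio of -4.71 (-5.43 to -4.08), and was seen in 2.90% of lymphatic cells against 43.4%. Bmp4 was at 4.94 CPM, a log2 ratio of -1.91. The receptors Eng and Acvrl1 were at 240.5 and 29.3 CPM, log2 ratios of -1.06 and -1.24, and Smad7 was at 26.1 CPM, a ratio of -1.005 at the edge of the fold. Smad6 had 4 UMIs in lymphatic cells, and neither it nor Bmp6 had enough UMIs to be among the 8616 genes.

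Bmp6 went the other way, at 13.8 CPM (9.78 to 18.8) in lymphatic and 4.90 CPM in blood endothelial cells, a log2 ratio of 1.49 (0.89 to 2.07), from 39 UMIs in 12 lymphatic cells. Id1 and Id3, with log2 ratios of -0.61 and 0.26, and Tgfb1, at 0.26, were within 2-fold. Acvrl1 and Smad6 were within 2-fold when cells were thinned to 4000 UMIs (-0.83 and -0.90). Smad7 was within it (-0.81) when blood endothelial cells with other markers were left out, with all 207 lymphatic cells kept. The lymphatic class of PyMT-N itself held 124 CPM of the fibroblast list (Col1a1, Col1a2, Dcn, Lum, Pdgfra), against 4.29 CPM in blood endothelium. At least 2 UMIs of that list were seen in 23.7% of lymphatic cells, whose part in the ratios was not tested. PyMT-M had 20 lymphatic cells, of which 2 held all 13 Bmp2 UMIs, and Eng there was at 360 CPM (246 to 508) on 32 UMIs.

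Fibroblasts, 58 and 63 cells, held 0 and 17 UMIs of Bmp2, none of Bmp4 in either library, and 2 and 8 of Bmp6. In PyMT-M 3 counts would be 5.58 CPM and in PyMT-N 1.96 CPM. Eng was at 85.6 CPM (62.7 to 114) and 29.4 CPM (21.4 to 39.3), and Id3 at 130 CPM (102 to 165) and 355 CPM (325 to 386), which put the ratio between the libraries in the direction of tumor cells for Id3. Smad7 was at 39.1 and 101 CPM. The fibroblast class shared 12 and 9 cells with the tumor class.

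The genes also differed within the blood endothelium of each library. Cells were thinned to 4000 UMIs, and those at or above the 75th percentile of a summed marker list, and with at least 1 UMI of it, were compared with the other cells of the library, which is a range of a score and not a cell type. The 5 genes Bmp2, Eng, Smad7, Id1 and Id3 were higher in the upper arterial range (Gja5, Gja4, Sox17, Bmx, Sema3g, Fbln5, Dll4, Jag1) in both libraries with counting intervals clear of 0. How many of all genes would be clear of 0 in a range of this kind was not computed. Calls in these ranges are therefore not shown to be particular to the genes followed here. Bmp2 stood at 148 CPM against 84.5 in PyMT-M and 249 against 146 CPM in PyMT-N, log2 ratios of 0.81 and 0.77, and Id3 had ratios of 0.54 and 0.44. Eng was at 0.28 (0.11 to 0.45) in PyMT-M and 0.13 (0.0019 to 0.25) in PyMT-N. Smad7 was at 0.69 (0.044 to 1.31) and 0.41 (0.0089 to 0.80), so both genes had lower bounds close to 0. With the median as the limit, Smad7 (-0.34), Id1 (-0.0060) and Id3 (-0.067) changed sign in PyMT-M. Eng was then at 0.070 in PyMT-M and 0.030 in PyMT-N. At 2000 UMIs, Bmp2 and Eng in PyMT-M stood at 0.14 and 0.076, below their reported counting intervals.

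Bmp2 and the Id genes separated in the tip range (Esm1, Apln, Angpt2, Pgf, Cxcr4, Dll4, Mcam, Lama4), which marks sprouting cells. Bmp2 was at 191 CPM in the upper cells of PyMT-M and 68.3 CPM in the others, and at 287 and 139.5 CPM in PyMT-N, log2 ratios of 1.48 (1.007 to 1.956) and 1.04 (0.83 to 1.26). Id3 was at 280 against 536 CPM in PyMT-M and 195 against 287 CPM in PyMT-N, ratios of -0.94 and -0.56. Eng (-0.47 and -0.30) and Id1 (-0.90 and -0.31) were lower as well, but Id1 in PyMT-N was at 0.045 when cells were thinned to 2000 UMIs.

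The venous range (Ackr1, Selp, Sele, Nr2f2, Ephb4, Vwf, Vcam1, Lrg1) had the reverse order. Eng was at 1127 against 789 CPM in PyMT-M and 796 against 468 CPM in PyMT-N, log2 ratios of 0.51 and 0.76. Id3 was at 679 against 392 CPM and 377 against 222 CPM, ratios of 0.79 and 0.77, and Id1 (0.58 and 0.57) and Smad7 (0.76 and 0.50) were higher too. Bmp2 was lower, at -1.46 (-2.25 to -0.74) and -0.43 (-0.69 to -0.18). With the median as the limit, Bmp2 (0.13) and Smad7 (-0.23) changed sign in PyMT-N.

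The genes Klf2, Klf4, Nos3 and Thbd, which respond to fluid shear stress, gave the widest range for Id1. It stood at 620 CPM in the upper cells and 294 CPM in the others of PyMT-M, and at 354 and 177 CPM in PyMT-N, log2 ratios of 1.07 (0.83 to 1.32) and 1.00 (0.82 to 1.19). Id3 (0.85 and 0.77) and Eng (0.43 and 0.30) were higher with it, and Bmp2 lower (-0.86 and -0.44), although Bmp2 in PyMT-M was at 0.020 with the median as the limit. Bmp6 was lower in the upper cells of PyMT-M, on 5 and 39 UMIs, and higher in those of PyMT-N, on 13 and 11 UMIs. The opposite signs were lost at 2000 UMIs and with the median as the limit, where PyMT-M was at 0.17 and 0.33. Cycling cells (Mki67, Top2a, Cenpf, Ccnb1, Birc5, Cdk1, Tpx2) had less Bmp2, at -1.69 and -1.48, and less Bmp6, whereas Id1, Id3 and Eng did not differ clearly in both libraries. In PyMT-N the 75th percentile of the cycling list was 0, so its upper cells were the 199 of 1045 with any UMI of the list, and the median gave the same cells. No gene differed clearly in both along the capillary or the interferon list. Bmp2 was among those that differed clearly in 1 library. In the capillary range it was at 1.27 (1.06 to 1.49) in PyMT-N and -0.43 (-1.05 to 0.15) in PyMT-M, the latter 0.36 with the median as the limit. In the interferon range Bmp2 was at 1.01 (0.52 to 1.49) in PyMT-M and 0.10 (-0.13 to 0.33) in PyMT-N.

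**Figure D4:**
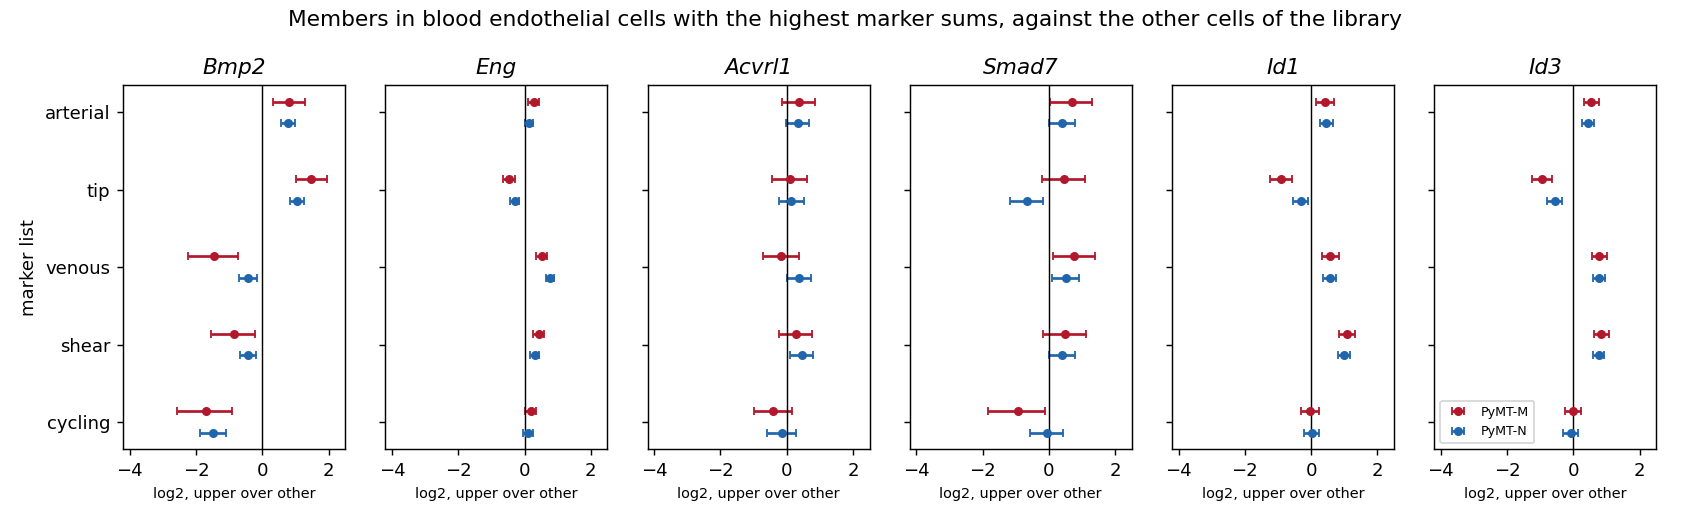
Log2 ratio of the level in cells at or above the 75th percentile of each marker list (with at least 1 UMI of it) over that in the other blood endothelial cells of the same library, after thinning, for 6 genes in PyMT-M (red) and PyMT-N (blue), with 95% counting intervals. Bmp2 lies right of 0 in the arterial and tip ranges and left of it in the venous, shear and cycling ranges, whereas Id1 and Id3 are left of 0 only in the tip range with intervals clear of 0 in both libraries. The capillary and interferon lists are not shown.

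For most of the genes the ratio between the libraries kept its sign on both sides of these ranges. Over the 14 subsets made by the 7 lists (upper and other cells, which overlap between lists), Eng, Acvrl1, Id1, Id3 and Bmp6 were higher in PyMT-M in 14 of 14, and Bmp2, Bmp4 and Tgfb1 were lower in 14 of 14. Id3 ratios ran from 0.52 to 1.19 and Eng ratios from 0.50 to 0.95. Smad6 was higher in 13 and Smad7 in 11 of 14. The 14 subsets split the same cells 7 times, so these counts largely repeat the ratio over all cells. For these Smads nearly all intervals held 0, so the signs were mostly not clear. The only Smad6 interval clear of 0 was that of the other cells of the cycling range. For Smad7 it was that of the upper tip cells. Some intervals of other genes held 0 too, as for Acvrl1 in the upper venous cells (0.17, -0.40 to 0.71).

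Across single blood endothelial cells at 4000 UMIs (383 of PyMT-M, 1045 of PyMT-N), the counts of Id1 and Id3 had a Pearson correlation of 0.36 and 0.40. Id3 was seen in 70.8% of PyMT-M cells with Id1 and 47.8% of those without, and in 59.1% and 36.5% in PyMT-N. Eng correlated with Id1 at 0.31 and 0.22 and with Id3 at 0.30 and 0.28. Bmp2 correlated negatively with Eng (-0.20 and -0.17). Id3 was seen in 32.8% of PyMT-M cells with Bmp2 and 67.1% of those without, and in 38.9% and 50.1% in PyMT-N. The cells share a library, so these are descriptions.

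Over the 7 combinations of library and class with at least 50 cells, the genes most like Acvrl1 by Pearson correlation of log2(CPM + 5) were Ginm1 (0.984), Mgat1 (0.983) and Slfn5 (0.980), among 13405 genes of which 130 exceeded 0.9. For Smad6 they were Nfkbiz (0.950), BC031181 (0.931) and Mok (0.930), and for Id1 Hprt (0.998), Api5 (0.990) and Pnkd (0.985). Of the same 13405 genes, 15 exceeded 0.9 with Smad6 and 363 with Id1. Each point is a cell class of 1 of the same 2 libraries. Among the members, Bmp4 and Id1 (0.89), Bmp2 and Bmp4 (0.88) and Eng and Acvrl1 (0.87) were closest, and all of these pairs stayed below 0.9.

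The rest of the pathway was read from a list of 76 other genes, of which 44 had at least 200 UMIs in blood endothelium. Of these, 9 were at least 1.5-fold higher in PyMT-M, 11 were lower and 24 lay within the fold, with a median log2 ratio of -0.23. That is 20 of 44 past a fold that 17.1% of all ranked genes passed.

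All 3 ranked genes listed under ligands were lower in PyMT-M: Bmp1 at -1.10, Inhbb, an activin subunit, at -0.80, and Tgfb2 at -0.65. Bmp1 is listed there by name only, since it is a metalloprotease that processes collagen and chordin and is no BMP by sequence. Gdf2 and Bmp10, which encode the ALK1 ligands BMP9 and BMP10 and are made mainly in liver and heart, had no UMI in blood endothelium of either library, and neither did Nog. Among 7 ranked receptors, Tgfbr1 (ALK5) was at 25.2 and 45.7 CPM (-0.86) and Acvr1 (ALK2) at 29.7 and 44.7 CPM (-0.59), and Tgfbr3 (betaglycan) was higher at 101 and 64.6 CPM (0.65). Bmpr2, the type 2 partner of ALK1, was nearly level at 258 and 242 CPM, and Tgfbr2 was at 197 and 257 CPM. Bmpr1a (ALK3) was at 1.52 CPM (5 UMIs) and 0.604 CPM (9 UMIs) in blood endothelium, against 60.6 and 99.8 CPM in tumor cells.

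None of the 5 ranked Smads passed the fold. Smad1 was at 336 and 461 CPM (-0.46), Smad5 at 72.2 and 84.5, Smad4 at 62.8 and 74.0, Smad2 at 58.8 and 56.7, and Smad3 at 61.6 and 61.4 CPM. Smad9, the third BMP Smad, had 1 UMI in each library. Smad1 was at 25.0 and 38.3 CPM in tumor cells, far below its endothelial level.

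Of 9 ranked extracellular regulators, 5 passed. Lrrc32 (GARP), which holds latent TGF-beta on the cell surface, was at 137 CPM in PyMT-M and 38.0 CPM in PyMT-N (1.85), and Thbs1 (thrombospondin), an activator of latent TGF-beta, at 186 and 52.3 CPM (1.83). Bgn (-0.84) and Mgp (-0.60), an inhibitor of BMP ligands, were lower. Among intracellular and membrane regulators, Pmepa1, a TGF-beta-induced inhibitor of Smad2 and Smad3, was at 139 CPM in PyMT-M and 548 CPM in PyMT-N (-1.98), and the pseudoreceptor Bambi was at -0.69, whereas Tgif1 (0.22) and Fkbp1a (0.11) were within the fold.

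Of 12 ranked targets, 5 were higher and 2 lower. Ccn1 (Cyr61) was at 179 and 67.8 CPM (1.40), Tagln, a smooth-muscle actin-binding protein, at 79.8 and 7.38 CPM (3.43), Bmp2k at 53.1 and 133 CPM (-1.33) and Tgfbi at 24.9 and 47.2 CPM (-0.92). Leaving out the 11 and 65 cells with immune, mural or fibroblast markers brought Tagln to 19.6 and 8.02 CPM (1.29) and Tgfbi to 21.2 and 20.6 CPM (0.04), and took Mgp to -2.26, Bgn to -1.29 and Tgfb2 to -1.08. Tgfbr1 was then at -0.58, just inside the fold. The 10 members moved little with those cells out: Eng was then at 0.78, Acvrl1 at 0.67, Id1 at 0.61, Id3 at 0.91, Bmp2 at -0.77 and Bmp6 at 2.56, while Smad7 went from 0.21 to 0.42 (0.18 to 0.65).

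**Figure D5:**
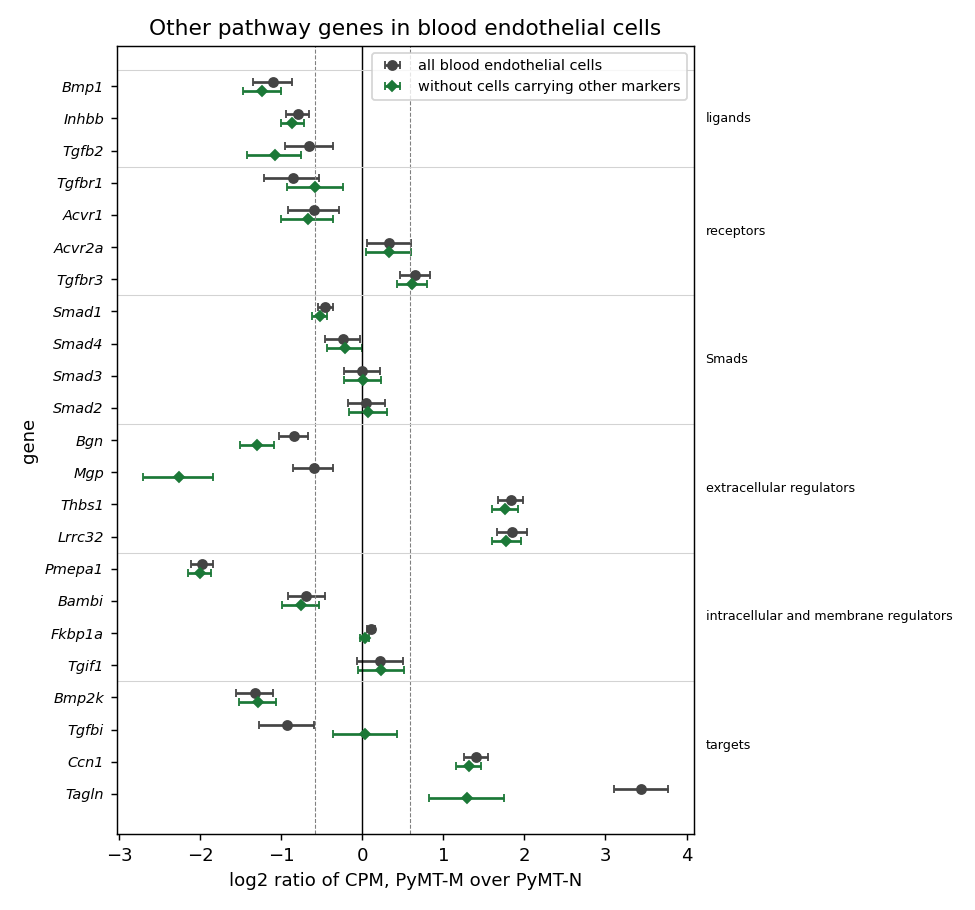
Log2 ratio of CPM, PyMT-M over PyMT-N, for other pathway genes in all blood endothelial cells (dark circles) and without cells that carry markers of other cell types (green diamonds), with 95% counting intervals and dashed lines at 1.5-fold. Lrrc32, Thbs1 and Ccn1 stayed above the fold and Pmepa1 below it, whereas Tagln, Tgfbi, Mgp and Bgn moved by more than the width of their intervals.

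In the lymphatic cells of PyMT-N, 8 of 45 ranked pathway genes were at least 2-fold higher than in blood endothelium and 4 were lower. Of all 8616 ranked genes, 6.14% were higher and 8.66% lower by that fold. The part of the lymphatic cells that carried fibroblast-list UMIs in these ratios was not tested. Of the higher genes, 6 were extracellular regulators, among them Mgp at 474 CPM against 73.6 CPM (2.69), Lrrc32 at 152 against 38.0 CPM (2.00) and Ltbp4, a latent TGF-beta binding protein, at 380 against 108 CPM (1.82). Tgfbr3 was higher as well, at 245 against 64.6 CPM (1.92). Inhbb (-2.48), Bambi (-1.84), Hey1 (-4.76) and Ccn2 (-1.46) were lower, of which Hey1, a Notch and BMP target, had 5 UMIs in lymphatic cells and 47.9 CPM in blood endothelium.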

How the data were processed

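Data were 2 droplet-based 3′ libraries, each of sorted, endothelial-enriched cells pooled from 3 tumors, of the PyMT-M or the PyMT-N line. The authors deposited whole-number UMI counts per gene and cell barcode, without normalization. The submitters' processing notes name Cell Ranger 8.0.0 and build mm39. Labels name collagenase I for dissociation, the study's methods collagenase II with dispase II. Groups came from the sample labels.

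Counts were summed per library and class and scaled to CPM, with exact Poisson intervals, exact Clopper-Pearson intervals for shares and exact conditional intervals for log2 ratios, all at 95% and covering counting error only. With 1 library per line no test was run. A gene with no count was read against 3 counts per class. Ratios were called past 1.5-fold between libraries and 2-fold between classes, beside all genes with at least 200 UMIs. For shares, marker ranges and correlations each cell was thinned to 4000 UMIs (seed 1), which left out 205 PyMT-M and 20 PyMT-N blood endothelial cells. No doublet caller was run. Blood endothelial barcodes with markers of other cell types were left out as an alternative, and the other classes were kept whole.

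Named genes were all 10 members and, from a fixed list of 76 pathway genes, the 2 highest and 2 lowest ratios per role, the receptors and Smads by level, and the 3 genes most like Acvrl1, Smad6 and Id1. Further genes named for lymphatic cells and Pdgfra were picked after their values were seen. The members, lists and rules were chosen with earlier results of these data known. The interval method was run on simulated Poisson counts, the model it assumes, without the clumping of UMIs in few cells. That run cannot show how well the intervals hold for these data. Scripts ran in Python 3.11.15 with scipy 1.17.1 and numpy 2.4.6; tables used pandas 2.3.3, figures matplotlib 3.10.9.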

Additional observations from a re-analysis of the deposited data

Results flagged for a closer look

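Among the 10 genes, 3 had a ratio between PyMT-M and PyMT-N with opposite signs in blood endothelial and tumor cells and counting intervals clear of 0 in both. Bmp6 was at a log2 ratio of 2.62 in blood endothelium and -3.26 in tumor cells, Smad6 at 1.56 and -8.40, and Id3 at 0.99 and -6.36. With 1 library per line the difference between the classes was not tested. Smad6 in PyMT-M tumor cells rested on 5 UMIs and Bmp6 on 11.

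Bmp6 also had opposite signs along the shear-responsive list, with a log2 ratio of the upper over the other cells of -1.38 in PyMT-M and 1.30 in PyMT-N, on 44 and 24 UMIs. The signs were no longer opposite in cells thinned to 2000 UMIs, where PyMT-M was at 0.17 and PyMT-N at 2.15, or with the median as the limit, at 0.33 and 2.22. This difference was not tested.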

How the results depend on the processing

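Each count of genes was recomputed under 14 or 15 alternatives, covering the cell filters, the marker limits, the deepest cells, the mean over cells, the scaling, thinning, cycling cells and the count minimum. The added alternative without cells carrying other markers, the alternatives in tumor cells, the ratios between libraries inside marker ranges and thinning to 2000 UMIs for the correlation were chosen after seeing the data. A minimum of 1000 UMIs counts fewer genes by construction, and 5 genes were then past 1.5-fold between the libraries in blood endothelium, 3 were past 2-fold between blood endothelial and tumor cells in PyMT-M, and 3 between lymphatic and blood endothelial cells in PyMT-N. Thinning to 2000 UMIs lowered the correlation of Id1 and Id3 to 0.20 in PyMT-M and 0.24 in PyMT-N; the cause was not tested. The other 89 recomputed counts stayed within 1.5 times the reported ones. Of the recomputed ratios of single genes between libraries or classes, 66 left their reported counting interval and 665 stayed inside it. Of 126 recomputed ratios along the marker ranges whose reported interval was clear of 0, 9 changed sign. With the median as the limit these were Smad7 (-0.34), Id1 (-0.0060) and Id3 (-0.067) in the arterial range of PyMT-M, Bmp2 (0.020) and Bmp6 (0.33) in the shear range of PyMT-M, and Bmp2 (0.13) and Smad7 (-0.23) in the venous range of PyMT-N. At 2000 UMIs they were Bmp6 in the shear range of PyMT-M (0.17) and Id1 in the tip range of PyMT-N (0.045). Another 14 ratios with the median as the limit and 18 at 2000 UMIs kept their sign but left the reported counting interval. Ratios of Id3 in blood endothelium ran from 0.82 to 1.04, of Eng from 0.66 to 0.90, of Id1 from 0.61 to 0.74, of Acvrl1 from 0.55 to 0.80, of Bmp2 from -0.83 to -0.60, of Bmp4 from -1.40 to -0.62, of Bmp6 from 2.29 to 3.16, of Smad6 from 0.84 to 1.64, of Smad7 from 0.02 to 0.42 and of Tgfb1 from -0.55 to -0.36. Smad7 in lymphatic cells left the 2-fold call under 7 alternatives. Of 20 pairs of gene and marker range that agreed between the libraries, 14 agreed at 2000 UMIs and 14 with the median as the limit. No share over all genes was computed for such pairs.

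No paired analysis was possible because each line has 1 library and the labels give no replicate numbers. Leaving out a replicate was not possible for the same reason. Blood endothelial cells of PyMT-M were fewer and shallower, so genes such as Bmp4, Bmp6 and Smad6 rest on 35 to 99 UMIs there. Tumor-to-tumor spread within a line, and line and batch, cannot be told apart from these libraries.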
